A study of Danio rerio with 2 samples.

Results

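The genes of the exocytosis machinery described here were 93 of the 32057 gene listings in the features file of the zebrafish pituitary libraries. Members were chosen by symbol: every listing, with case ignored, that starts with syt, stx, vamp or rims followed by a digit, with stxbp, rab3, unc13, cplx or cadps, or with snap23, snap25 or snap29, and that held at least 20 unique molecular identifiers (UMIs, each standing for 1 captured RNA molecule) over both libraries. The expression matched 100 listings. The 7 that fell short were *stx11b.1* with 17 UMIs, *cplx3a* with 16, *cplx3b* with 9, *stx3a* and *RAB32* with 6 each, *cplx4b* with 5 and *cplx4a* with 0. Just inside the minimum stood *stx11b.2* and *syt5b* with 22 UMIs each, a first *SYT6* listing (ENSDARG00000031463) with 25 and *syt5a* with 30. The symbols *SYT2* and *SYT6* were each listed under 2 gene identifiers, so the 93 listings carried 91 distinct symbols, and *SYT6* below is the listing ENSDARG00000076730. *STX12* (ENSDARG00000044605) and *stx12* (ENSDARG00000098813) differ only in case and are separate members. By role the members were 22 synaptotagmins, 12 SNAREs of the plasma membrane, 5 vesicle SNAREs, 14 other SNAREs, 6 priming and active-zone proteins, 5 Rab3 GTPases, 4 Rab3 regulators, 4 Sec1/Munc18 proteins, 6 other syntaxin-binding proteins, 4 complexins and 11 Rab proteins outside the Rab3 group that the symbol rule also takes in. The rule itself uses symbols and the minimum of UMIs and no comparison between cells or libraries, but it was set with earlier results of these data known.

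Pituitary hormones are stored in dense granules and released when calcium rises in the cell. Rab3 proteins and their partners RIM and Munc13 hold the granule at the plasma membrane and ready it. A vesicle SNARE (VAMP) then pairs with the plasma-membrane SNAREs (a syntaxin and SNAP25). Munc18 guides this step, tomosyn restrains it, complexin modulates it, and synaptotagmin, the calcium sensor, triggers release. The same protein families serve transmitter release at synapses, and other members serve traffic between the Golgi, endosomes and the cell surface in all cells. Zebrafish carry several of these genes as a pair of close copies (a and b paralogues). Reads of near-identical stretches can be split uncertainly between such copies.

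Male zebrafish 6 months old gave the pituitaries, 30 fish per group pooled into 1 droplet single-cell library per genotype. The control group was wild type (WT) and the other group carried mutations of both cholecystokinin ligand genes (*cck1*-/-;*cck2*-/-, labelled CCK1/2-KO, the mutant below). The study asked how cholecystokinin, a peptide hormone of gut and brain, acts on gonadal development, and used these pituitary cells as part of its evidence. With 1 library per genotype no test was possible: each value has a 95% interval for counting error only, which leaves out differences between fish, dissections and libraries, and a difference between the libraries cannot be told apart from one between the genotypes.

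The WT library held 22358017 UMIs in 5236 barcodes and the mutant library 15910570 in 3755, with medians of 864 and 941 UMIs per barcode, and 11 barcode sequences occurred in both. After filtering, 1762 WT and 1239 mutant cells held at least 2000 UMIs, and only these were classed. Hormone cells were named from the share of their own hormone's UMIs, with no exocytosis gene used: 193 and 122 GH cells (*gh1*, at least 10% of UMIs; WT then mutant, here and below), 64 and 33 PRL cells, 110 and 41 POMC cells, 53 and 13 LH cells, 22 and 14 TSH cells, 12 and 9 SL cells (somatolactin), and 22 FSH cells in WT with none in the mutant. The FSH class rests on *fshb* itself, and the paper reports lower *fshb* RNA and fewer FSH cells in this mutant. Cells that had lost *fshb* RNA would fall outside the class and may be counted among non-endocrine cells, which was not tested. Non-endocrine cells, with every hormone below 25% of its threshold, numbered 1218 and 963, and "-like" names within them rest on marker lists. In POMC cells *pomca* stood at 80536 and 96635 UMIs per 1000000 UMIs (CPM), and in TSH cells *tshba* at 34022 and 26302 CPM. In WT SL cells the own hormone made up only 0.753% of UMIs. These levels follow from the rule that named the classes and are no check of the names. *gh1* made up 33.7% of all UMIs of GH cells in WT and 19.5% in the mutant, which leaves less room for other genes in WT GH cells when levels are given per total. In mutant TSH cells 2.03% of UMIs were *gh1*, against 0.0996% in WT. The only cholecystokinin ligand listing by symbol, *ccka*, had 144 UMIs in the WT and 14 in the mutant library. The labels call the mutated genes *cck1* and *cck2*, which of them *ccka* stands for is not given in the sources used here, and RNA of a mutated gene may still be counted.

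Summed over all 93 members, exocytosis genes took 4461 CPM in hormone cells and 1169 CPM in non-endocrine cells of the WT library, and 5703 and 2053 CPM in the mutant library. Within the hormone cells the sum was highest in POMC cells (7257 and 8145 CPM) and TSH cells (7208 and 7572 CPM). In GH cells it was 3349 and 5361 CPM, and in PRL cells 3228 and 3416 CPM. LH cells had 3782 and 4244 CPM, SL cells 4562 and 4891 CPM, and WT FSH cells 5441 CPM. The median WT FSH cell had 3791 CPM, and the highest of them 20724 CPM. Red blood cell-like cells, used here as the measure of background from free RNA, had 282 and 269 CPM. The few neuron-like cells, 4 and 5 in number, had 14688 and 16476 CPM, more than any hormone class. The map of levels by class shows the levels gene by gene.

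**Figure D1:**
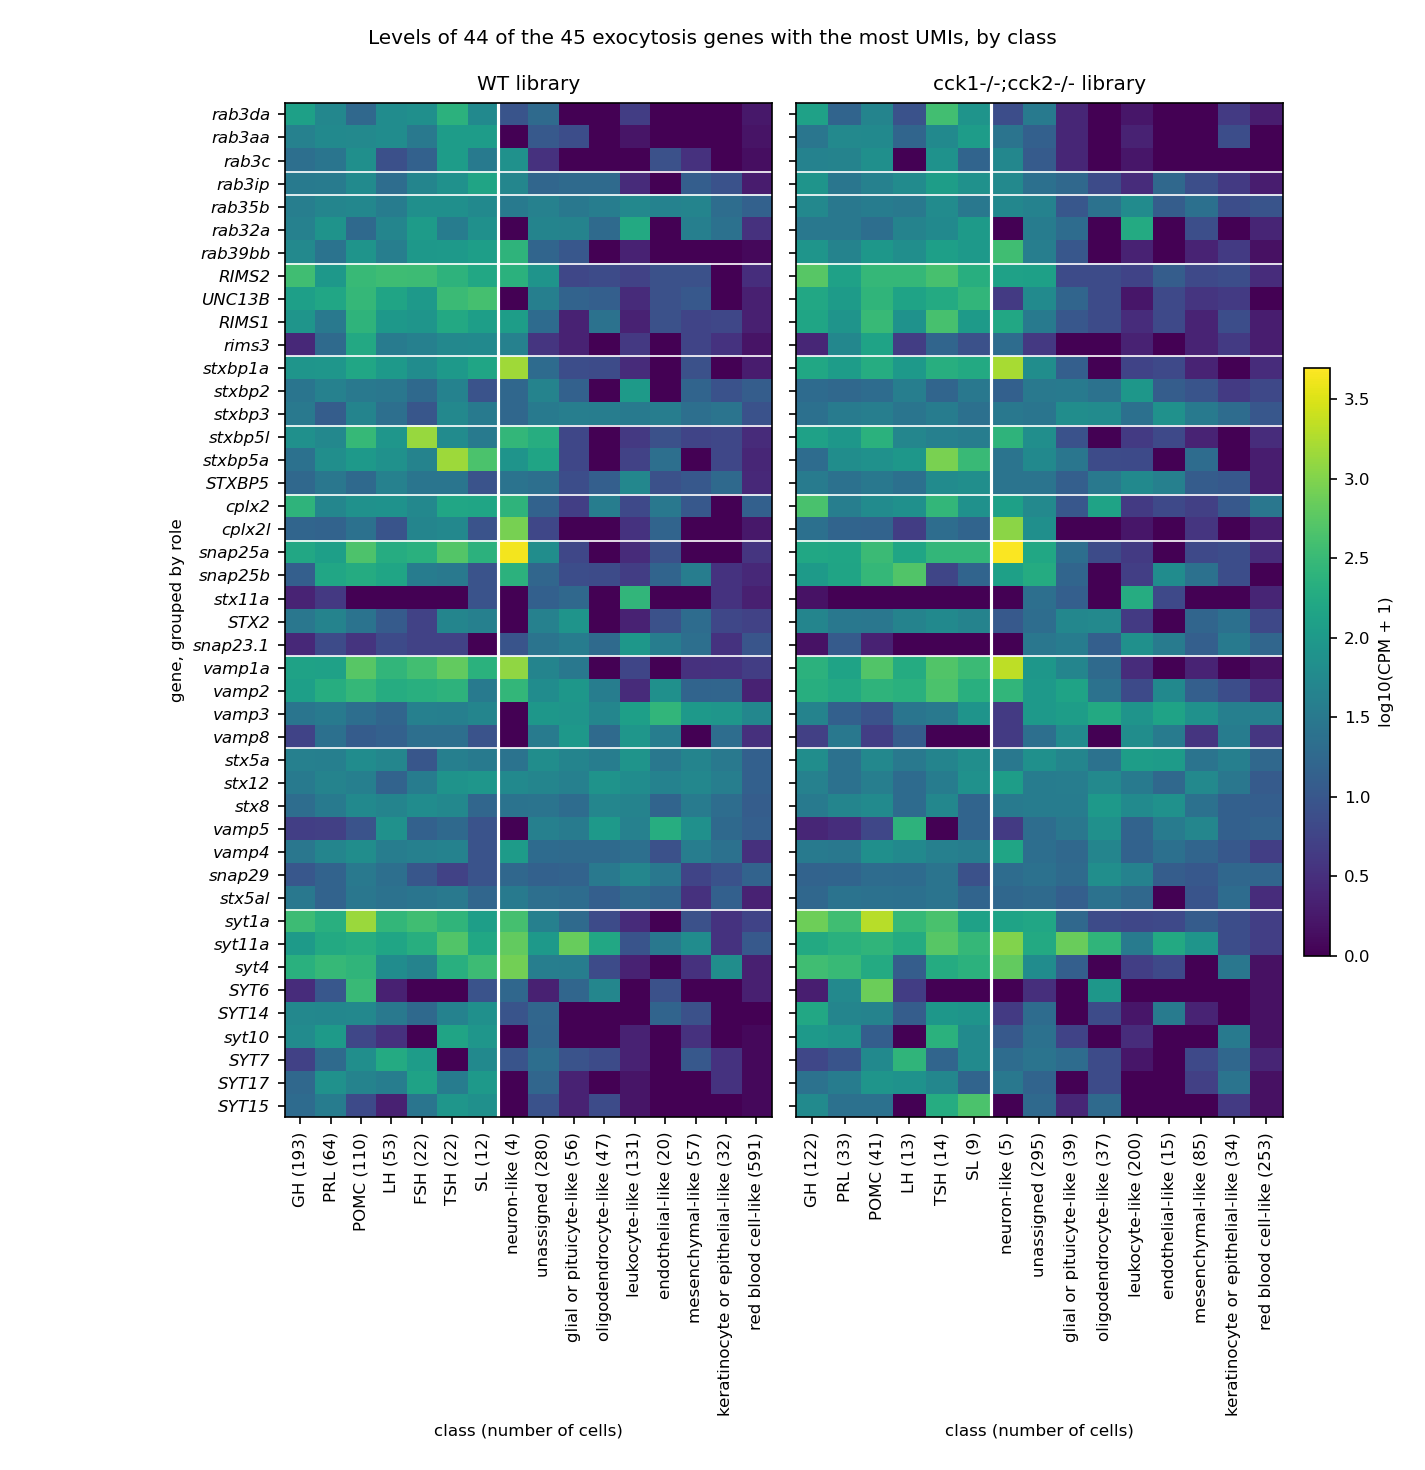
Levels of 44 of the 45 members with the most UMIs, as log10(CPM + 1) by colour, in each class of the WT library (left) and the mutant library (right), with cell numbers under each column, a white vertical line between hormone and non-endocrine classes and rows grouped by role. Most rows of the Rab3, priming, SNAP25 and synaptotagmin genes are bright left of the line and darker in most classes right of it. Exceptions on the right are neuron-like cells, unassigned cells for several genes, and *syt11a* in glial or pituicyte-like cells. The genes *stx11a*, *vamp3* and *vamp8* are brighter on the right.

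To ask which members set hormone cells apart, all hormone cells were compared with all non-endocrine cells inside each library, for members with at least 50 UMIs over both groups. In WT, 43 of 77 members were at least 2-fold higher in hormone cells, where 31.7% of all genes tested were, and 9 were at least 2-fold lower, where 19.7% were. The members' median log2 ratio was 1.52, and that of all genes 0.43. In the mutant, 37 of 75 were higher against 23.8% of all genes, 12 were lower against 23.4%, and the medians were 0.97 and 0.15. Of the non-endocrine cells, 591 of 1218 in WT and 253 of 963 in the mutant were red blood cell-like, a class low in members. Without them the log2 ratio of *syt1a* was 4.27 and 3.58 (4.98 and 3.94 with them). That of *rab3aa* was 3.37 and 2.46 (4.14 and 2.84), and that of *snap25a* was 1.08 and -0.54 (1.95 and -0.15). Class by class in WT, the share of members that were higher stood above that of all genes in GH cells (27 of 66, with 20.2% of all genes), PRL cells (28 of 62, with 24.8%), POMC cells (41 of 69, with 37.3%), LH cells (32 of 59, with 27.5%), FSH cells (30 of 54, with 32.9%) and TSH cells (37 of 58, with 42.4%). In SL cells it was close to it (28 of 55, with 49.7%). In the mutant the counts were 29 of 70 in GH cells (18.9% of all genes), 22 of 64 in PRL cells (17%), 35 of 72 in POMC cells (26.6%), 23 of 63 in LH cells (19.3%) and 30 of 62 in TSH cells (34.3%).

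All 5 Rab3 GTPases were at least 2-fold higher in hormone cells in both libraries, and so were all the priming and active-zone proteins tested (6 of 6 in WT, 5 of 5 in the mutant). Their median log2 ratios were 4.11 and 2.84 for the Rab3 genes and 4.07 and 3.12 for the priming genes. The lowest Rab3 ratio was 1.52 in WT and 1.83 in the mutant. Without red blood cell-like cells the ratio of *rab3c* was 3.61 and 2.70 (4.36 and 3.09 with them). Counts by role are not given without those cells, so these counts hold for the full set of non-endocrine cells. Of the synaptotagmins, 12 of 15 were higher and 1 lower in WT, and 11 of 17 higher and 2 lower in the mutant. The other SNAREs, those of Golgi, endosomes and other membranes, had medians near 0, at 0.22 in WT and 0.04 in the mutant. Their ratios ran from -1.08 to 4.59 in WT and from -1.36 to 3.30 in the mutant, and 3 of 13 and 2 of 12 were higher. The SNAREs of the plasma membrane went both ways: 3 of 9 were higher in each library, and 3 in WT and 4 in the mutant were lower. Of all genes tested, 31.7% in WT and 23.8% in the mutant were higher, and 19.7% and 23.4% were lower. The counts of higher plasma-membrane SNAREs and other SNAREs were not far from these shares and are not read as results about these roles.

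**Figure D2:**
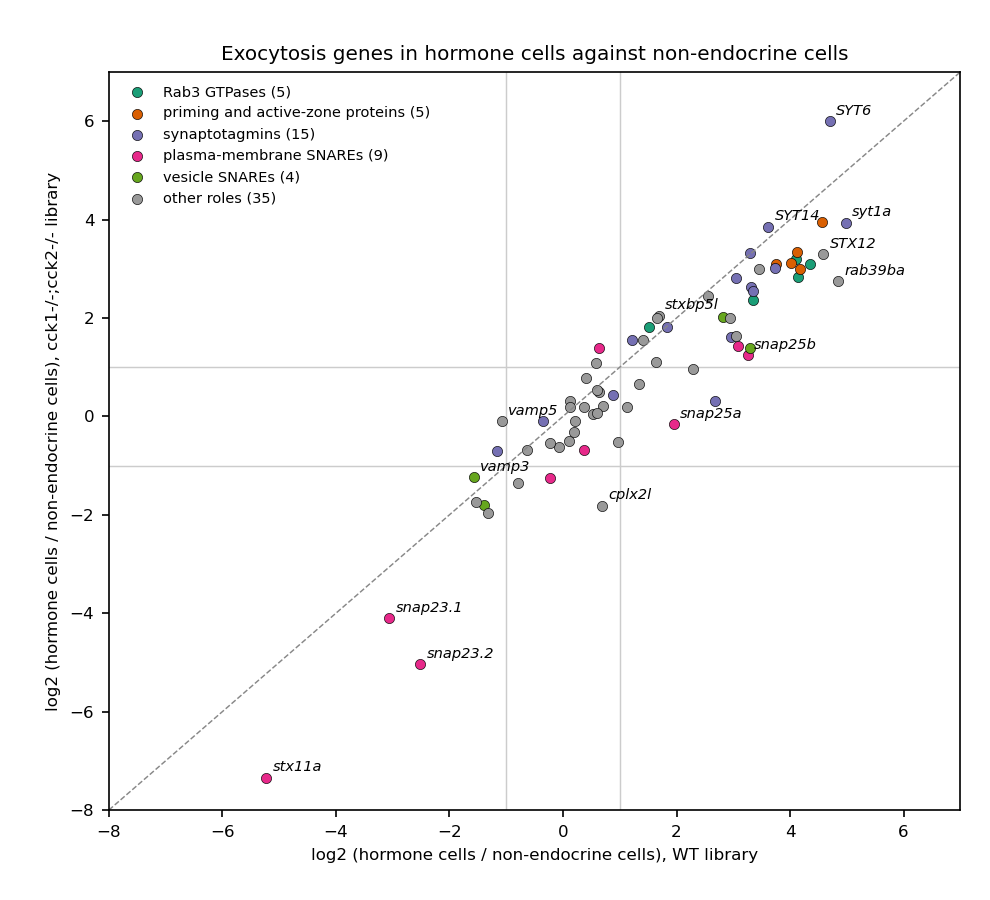
Each point is a member tested in both libraries, with the log2 ratio of summed CPM in hormone over non-endocrine cells in WT on the x axis and in the mutant on the y axis, coloured by role. *syt1a* lies at 4.98 and 3.94, *SYT6* at 4.70 and 5.99, and *stx11a* at -5.23 and -7.34.

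The largest ratio in WT belonged to *syt1a*, a synaptotagmin 1 gene that encodes the fast calcium sensor of release. Its level was 543 CPM in hormone cells and 17.2 CPM in non-endocrine cells of WT (log2 ratio 4.98, 95% interval 4.78 to 5.19), and 904 and 58.8 CPM in the mutant (3.94, 3.81 to 4.08). *rab39ba*, a Rab outside the Rab3 group, had 15 and 0.518 CPM in WT (4.85). *STX12*, a syntaxin of endosomes, had 33.2 and 1.38 CPM (4.59), with 25% of its 16 non-endocrine UMIs in 1 cell. *syt1a* had UMIs in every hormone class, while *STX12* was mainly in POMC cells. *rims3* and *RIMS4*, which encode short RIM proteins, reached 49.0 against 2.07 CPM (4.56) and 26.5 against 1.47 CPM (4.17, 23.5% of the non-endocrine UMIs in 1 cell). *rab3c* and *rab3aa*, which encode Rab3 GTPases of secretory vesicles, reached 33.6 against 1.64 CPM (4.36, 21.1% in 1 non-endocrine cell) and 51.7 against 2.94 CPM (4.14). *SYT6* reached 72.0 against 2.76 CPM (4.70, 28.1% in 1 non-endocrine cell).

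Of the 8 members lowest in hormone cells of WT, 5 were SNAREs of other secretory systems. *stx11a*, whose mammalian counterpart syntaxin 11 acts in the granule release of cytotoxic lymphocytes, had 1.14 CPM in hormone cells and 42.7 in non-endocrine cells of WT, and 0.262 and 42.4 CPM in the mutant. In leukocyte-like cells it stood at 273 and 195 CPM. *snap23.1*, which encodes a SNAP25 relative used outside neurons, had 3.13 against 26.2 CPM in WT (log2 ratio -3.06) and 1.83 against 31.2 CPM in the mutant (-4.09). Its close copy *snap23.2* had 0.997 against 5.70 CPM (-2.51) and 0.523 against 17.09 CPM (-5.03). *vamp3* and *vamp8*, which encode vesicle SNAREs of recycling and endosomal traffic, had log2 ratios of -1.57 and -1.39 in WT and of -1.24 and -1.80 in the mutant (32.1% of the 28 *vamp8* UMIs of mutant hormone cells in 1 cell). *vamp3* was present in most classes, with 274 and 141 CPM in endothelial-like cells. *RAB3IL1*, an exchange factor for Rab3A in mammals, was lower in hormone cells in both libraries (-1.53 and -1.73), and *stxbp6* as well (-1.32 and -1.96, 30.0% of the 10 UMIs of mutant hormone cells in 1 cell). *SYT3* was lower in WT (-1.16) and had -0.71 in the mutant (27.8% of the 18 UMIs of mutant hormone cells in 1 cell), and in WT cells thinned to 2000 UMIs it stood at 0.13.

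The core genes of synaptic release were not confined to hormone cells, and the neuron-like cells held the SNAP25 gene *snap25a* at a higher level. *snap25a* had 243 CPM in hormone cells and 62.7 CPM in non-endocrine cells of WT (1.95), and 202 and 225 CPM in the mutant (-0.15), with 55.6% and 25.5% of its non-endocrine UMIs in 1 cell. In the neuron-like cells it reached 4379 and 4827 CPM, with 75% and 33.7% of those UMIs in 1 cell. Without neuron-like and unassigned cells its ratio was 6.56 in WT and 5.26 in the mutant. In the same setting *vamp1a* moved from 3.29 and 1.40 to 5.49 and 5.40 (40.4% and 29.3% of its non-endocrine UMIs in 1 cell). *snap25b* moved from 3.26 and 1.25 to 4.35 in both libraries. Its mutant value among all non-endocrine cells rested in good part on 1 unassigned cell, which held 60.2% of the 613 UMIs. This setting was chosen after the data were seen.

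*cplx2*, a complexin gene, was highest in GH cells among the hormone classes. Its levels there were 254 CPM (236 to 272) and 439 CPM (411 to 470), against 48.8 and 37.3 CPM in PRL cells (33.3% of the 18 mutant UMIs in 1 cell) and 73.2 and 59.1 CPM in POMC cells. TSH cells followed with 152 CPM (42.9% in 1 cell) and 281 CPM. The intervals of GH cells lay above those of every other hormone class with at least 10 cells in each library. *cplx2l*, a second complexin 2 gene, was at 8.24 to 51.9 CPM in the WT hormone classes with at least 10 cells other than SL, and at 869 and 1156 CPM in the neuron-like cells (86.9% and 40.6% in 1 cell).

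*RIMS2*, the RIM scaffold gene with the most UMIs, was also high in GH cells, at 371 and 554 CPM. In the other classes it stood between 93.5 CPM in PRL cells and 358 CPM in LH cells of WT, where GH, LH and FSH cells had overlapping intervals (FSH 340 CPM, 42.3% in 1 cell). *UNC13B*, a Munc13 gene needed for priming, was lowest among the WT classes in FSH cells (95.9 CPM, 36.4% in 1 cell) and highest in SL cells (410 CPM, 25% in 1 cell), with 122 and 164 CPM in GH cells and 289 and 266 CPM in POMC cells. *RIMS1* reached 251 and 311 CPM in POMC cells and 169 and 417 CPM in TSH cells (25.6% and 31.3% in 1 cell). *rab3da*, a Rab3D gene, was highest in TSH cells, at 238 and 377 CPM, and stood at 128 and 131 CPM in GH cells. *stxbp1a*, the main Munc18 gene of regulated release, ran across hormone classes from 61 CPM in FSH cells (21.4% in 1 cell) to 156 CPM in POMC cells of WT. *RIMS1*, *rab3da* and *stxbp1a* are named here after their values were seen.

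POMC cells, which make ACTH and melanocyte-stimulating hormone, had the highest WT levels of the synaptotagmins *syt1a*, *SYT6* and *syt12* among the hormone classes. *syt1a* had 1388 CPM (1330 to 1448) and 2028 CPM (1929 to 2130) in POMC cells, and a UMI was found in 104 of 110 and 41 of 41 of them. The next hormone class was FSH cells with 362 CPM in WT and GH cells with 776 CPM in the mutant. In single POMC cells the median of *syt1a* was 1265 and 1842 CPM. *SYT6*, which encodes a synaptotagmin known in mammals from acrosome release in sperm, had 316 CPM (289 to 346) and 742 CPM (683 to 805) in POMC cells. In GH cells it had 1.96 and 1.02 CPM, and TSH cells showed 0 UMIs in both libraries, which allows up to 13.0 and 15.1 CPM. It was detected in 56 of 110 and 27 of 41 POMC cells, with medians of 51.0 and 240 CPM per cell. The 53.9 CPM of *SYT6* in mutant PRL cells came from 26 UMIs of 1 cell.

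*STX12* also had its highest level in POMC cells, at 114 and 131 CPM. The separate listing *stx12* did not: among classes with at least 10 cells it was highest in SL cells of WT (86.7 CPM, 54.5% in 1 cell) and in GH cells of the mutant (41.3 CPM). In GH cells *STX12* had 10.8 and 6.12 CPM (25% of the 12 mutant UMIs in 1 cell), and in PRL cells 15.2 CPM (46.7% in 1 cell) and 6.22 CPM. *rims3* had 171 and 140 CPM in POMC cells and 1.64 and 1.53 CPM in GH cells. *syt12*, a synaptotagmin that does not bind calcium, had 41.5 CPM in WT POMC cells and 25.7 CPM in mutant ones (25% of 20 UMIs in 1 cell), against 1.31 CPM in GH, 1.02 CPM in PRL and 1.18 CPM in LH cells of WT, on 4, 1 and 1 UMIs. WT FSH, TSH and SL cells had 0 UMIs of it, which allows up to 13.1, 13.0 and 23.6 CPM. Red blood cell-like cells had 1.11 and 0.482 CPM of *SYT6* and 0 UMIs of *STX12*, which allows up to 0.555 and 1.45 CPM.

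Across the 3 hormone classes with at least 20 cells in both libraries, 52 members had at least 50 UMIs in hormone cells of each library. For 33 of them (63.5%) the class with the highest level was the same in WT and mutant, where 65.7% of all genes were, a share close to that of the members. Of the 33, 28 were highest in POMC cells, 4 in GH cells and 1 in PRL cells. No share of all genes is given for this split, so it is not read as a trait of the members. *SYT6* and *STX12* were the 2 members (3.85%) at least 4-fold above the next class in both libraries, against 4.96% of all genes. Among all hormone classes with at least 10 cells, and counting only members whose interval lay above those of all other classes, POMC cells in WT had 5 of 64 members (*syt1a*, *SYT6*, *STX12*, *rims3* and *syt12*), where 3.46% of all genes were highest in that way, and TSH cells had 3 (*rab3da*, *stxbp5a* and *syt11a*), where 2.08% were. In the mutant, without FSH and SL classes of that size, POMC cells had 5 of 53 (*syt1a*, *SYT6*, *STX12*, *rims3* and *stxbp5l*), where 5.79% of all genes were, and TSH cells had 6 (*rab3da*, *stxbp5a*, *syt11a*, *syt10*, *SYT15* and *vamp2*), where 4.31% were. Of the other classes, GH, LH, FSH and SL cells had 1 member each in WT, and in the mutant GH cells had 3 and LH cells 4. No share of all genes is given for these classes. This count by class, and *syt10* and *SYT15* in it, were chosen after the values were seen.

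The tomosyn genes *stxbp5a* and *stxbp5l* had different places among the hormone classes. A further listing, *STXBP5*, was highest in LH cells of WT (41.2 CPM) and in TSH cells of the mutant (60.3 CPM, 41.7% in 1 cell), with intervals not apart from those of other classes. Tomosyns bind syntaxin and SNAP25 and hold back the assembly of the release complex. *stxbp5a* had 1450 CPM (1299 to 1614) and 894 CPM (767 to 1035) in TSH cells, with 20 of 22 and 13 of 14 cells positive and 27.0% of the mutant UMIs in 1 cell. SL cells followed with 441 and 321 CPM (28.6% and 36.4% in 1 cell), and GH, PRL, POMC and LH cells lay between 19.4 and 100.5 CPM, with over 20% of the UMIs in 1 cell in PRL cells of both libraries and in mutant GH and LH cells. *stxbp5l* went the other way. It had 1334 CPM in WT FSH cells, where 159 of its 306 UMIs (52.0%) were in 1 cell, and 672 CPM (568 to 790) remained without that cell. A UMI was found in 11 of the 22 FSH cells, and the median cell had 24.1 CPM. In WT POMC cells a UMI of *stxbp5l* was found in 86 of 110 cells, with a median of 166 CPM. By the median cell *stxbp5l* was thus higher in POMC than in FSH cells. In TSH cells it was at 60.6 CPM (42.9% in 1 cell) and 40.2 CPM, in POMC cells at 298 and 232 CPM, and in GH cells at 71.0 and 131 CPM. As a share of the UMIs of *stxbp5a* and *stxbp5l*, *stxbp5l* took 4.01% and 4.3% in TSH cells and 6.67% and 10.2% in SL cells. It took 44.0% and 58.1% in PRL cells and 54.1% and 35.1% in LH cells. The share was 75.3% and 87.1% in GH cells, 74.8% and 75.7% in POMC cells, and 96.8% in FSH cells.

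*vamp5*, whose counterpart in mammals was described in muscle cells, was highest among the hormone classes in LH cells of both libraries. It had 73.0 CPM (56.0 to 93.6) and 243 CPM (187.4 to 309.5) in LH cells, in 20 of 53 and 11 of 13 cells. The other hormone classes held at most 17.3 CPM. Outside hormone cells it was at 202 CPM in WT endothelial-like cells (46.4% in 1 cell) and 33.8 CPM in mutant ones, and at 71.6 and 49.2 CPM in mesenchymal-like cells. A UMI of it was also found in 32 of 131 and 16 of 200 leukocyte-like cells. Over all hormone cells it was lower than in non-endocrine cells in WT (14 against 29.4 CPM, log2 ratio -1.08) and near them in the mutant (19.6 against 21.0 CPM, -0.10). *SYT7*, a synaptotagmin 7 gene for a slower calcium sensor, had 179 and 265 CPM in LH cells, against 4.26 and 5.10 CPM in GH cells. WT FSH cells came next at 109 CPM (48.0% in 1 cell), with an interval that overlapped that of LH cells, and POMC cells next in the mutant at 56.5 CPM. *RIMS4* had 57.7 and 202 CPM in LH cells (20.4% and 22.2% in 1 cell), and in WT it was higher in FSH cells, at 74.1 CPM with an overlapping interval. In the mutant *SYT7*, *RIMS4* and *snap25b* (23.5% in 1 cell) were, like *vamp5*, highest in LH cells with intervals above those of the other classes of at least 10 cells. These were 4 of 53 members, on 13 LH cells. No share of all genes is given for LH cells, so the count is not read as a result about the members. *SYT7* and the levels of *RIMS4* in LH cells are named after their values were seen.

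The main vesicle SNAREs were found in all hormone classes. *vamp1a*, which encodes a vesicle SNARE of the synaptobrevin group, ran from 130 CPM in PRL cells to 649 CPM in TSH cells of WT, and from 141 CPM (20.6% in 1 cell) to 494 CPM in POMC cells of the mutant among classes with at least 10 cells. *vamp2*, its close relative, ran from 122 CPM in GH cells to 290 CPM in POMC cells of WT, leaving out SL cells with 4 UMIs. Of the UMIs of both, *vamp2* took 47.9% and 47.2% in GH cells, 60.5% and 54.7% in PRL cells, and 34.6% and 33.6% in POMC cells. The order of these 3 classes was the same in both libraries, but in the mutant the intervals of GH (43.8 to 50.5) and PRL cells (46.3 to 62.8) overlapped. In glial or pituicyte-like cells *vamp2* took 75.3% and 75%, and in neuron-like cells 19% and 11.1%.

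*syt4*, a synaptotagmin of dense granules, was low in LH cells, at 61.2 CPM (23.08% in 1 cell) and 11.2 CPM, and in FSH cells, at 43.6 CPM (30.0% in 1 cell). In GH, PRL and POMC cells it stood between 184 and 367 CPM. *syt11a*, a synaptotagmin that does not bind calcium, was highest among hormone classes in TSH cells, at 494 CPM in WT and 547 in the mutant library (21.1% in 1 cell). It was higher still in glial or pituicyte-like cells, at 684 and 708 CPM.

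**Figure D3:**
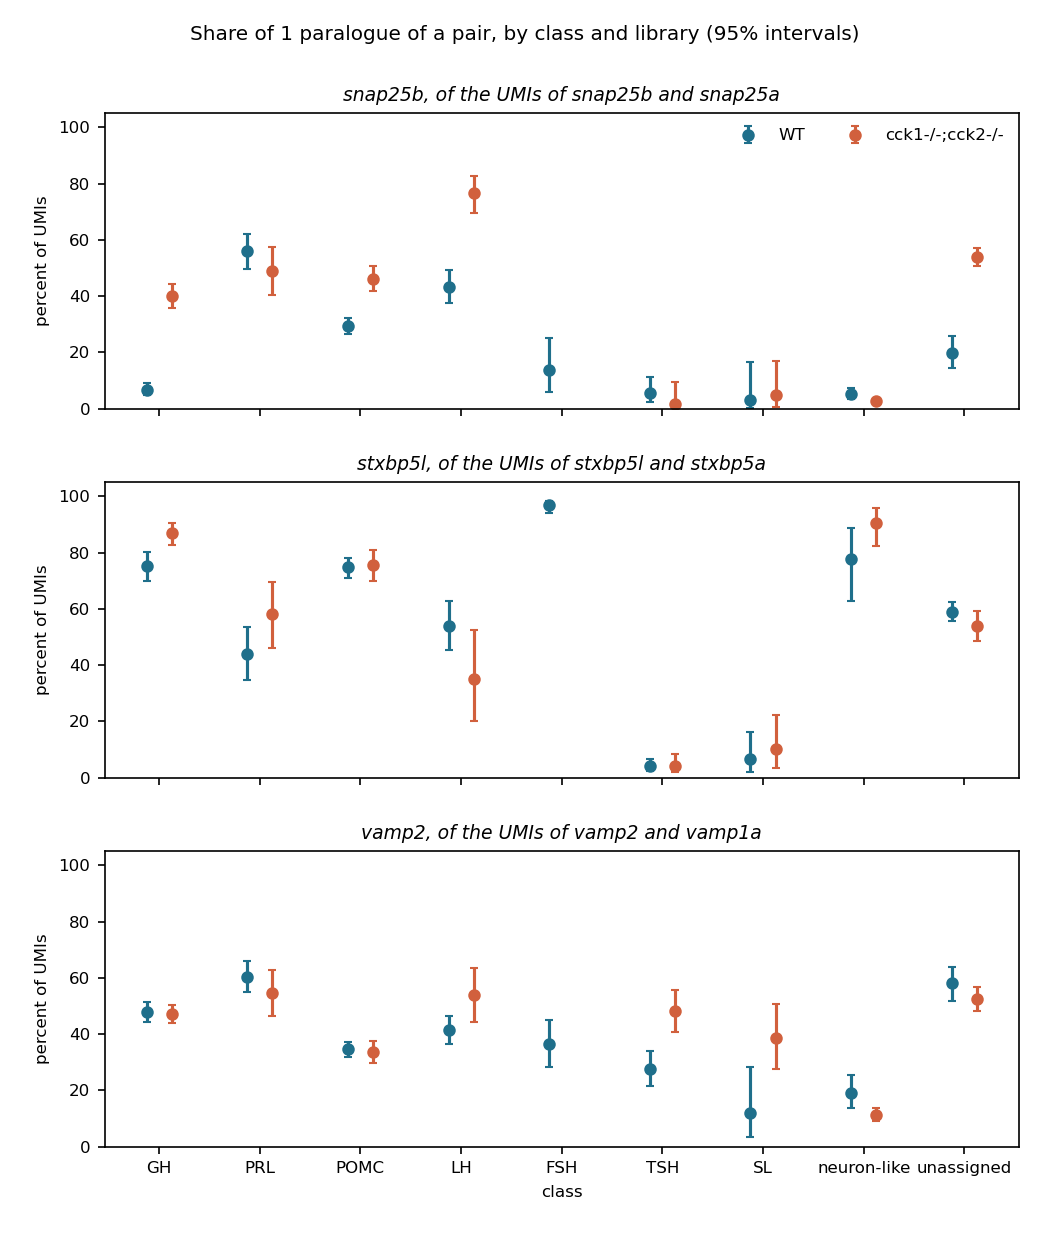
Share of *snap25b* in the UMIs of *snap25b* and *snap25a* (top), of *stxbp5l* in those of *stxbp5l* and *stxbp5a* (middle) and of *vamp2* in those of *vamp2* and *vamp1a* (bottom), in percent with exact 95% binomial intervals, by class on the x axis for WT and mutant. *snap25b* stands at 6.78% in WT and 39.9% in mutant GH cells, and *stxbp5l* at 4.01% and 4.3% in TSH cells.

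The balance of the SNAP25 genes differed between classes and between libraries. In WT, *snap25b* took 6.78% (4.82 to 9.22) of the UMIs of *snap25a* and *snap25b* in GH cells, 56.0% (49.8 to 62.0) in PRL cells, 29.2% (26.4 to 32.1) in POMC cells and 43.4% (37.7 to 49.3) in LH cells. In the mutant the shares were 39.9% (35.6 to 44.3) in GH cells, 48.9% (40.4 to 57.5) in PRL cells, 46.2% (41.7 to 50.7) in POMC cells and 76.7% (69.7 to 82.8) in LH cells. TSH cells stayed low, with 5.60% and 1.79%. The intervals of the libraries were apart in GH, POMC and LH cells and overlapped in PRL and TSH cells.

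To ask how these genes differed between the libraries, the mutant was compared with WT inside each class with at least 20 cells in both libraries. In GH cells, 10 of 49 members (20.4%) were at least 2-fold higher in the mutant, where 16.3% of all genes were, and 0 were at least 2-fold lower, where 4.09% of all genes were. The members' median log2 ratio was 0.67. That of all genes was itself 0.33, and 0.05 when hormone and mitochondrial UMIs were left out of the totals, so ratios in GH cells are read against that shift. The share of members that were higher was thus near that of all genes, and its split by role is not read as a result. By role, 5 of 10 synaptotagmins were higher, and so were 2 of 5 Rab3 GTPases and 1 of 4 plasma-membrane SNAREs. Of these 5 synaptotagmins only *SYT15* (1.04) stayed at least 2-fold higher in the GH cells of 10 to 30% *gh1*, described below. None of the 4 priming genes or 3 vesicle SNAREs tested passed 2-fold, and their medians were 0.50 and 0.79.

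**Figure D4:**
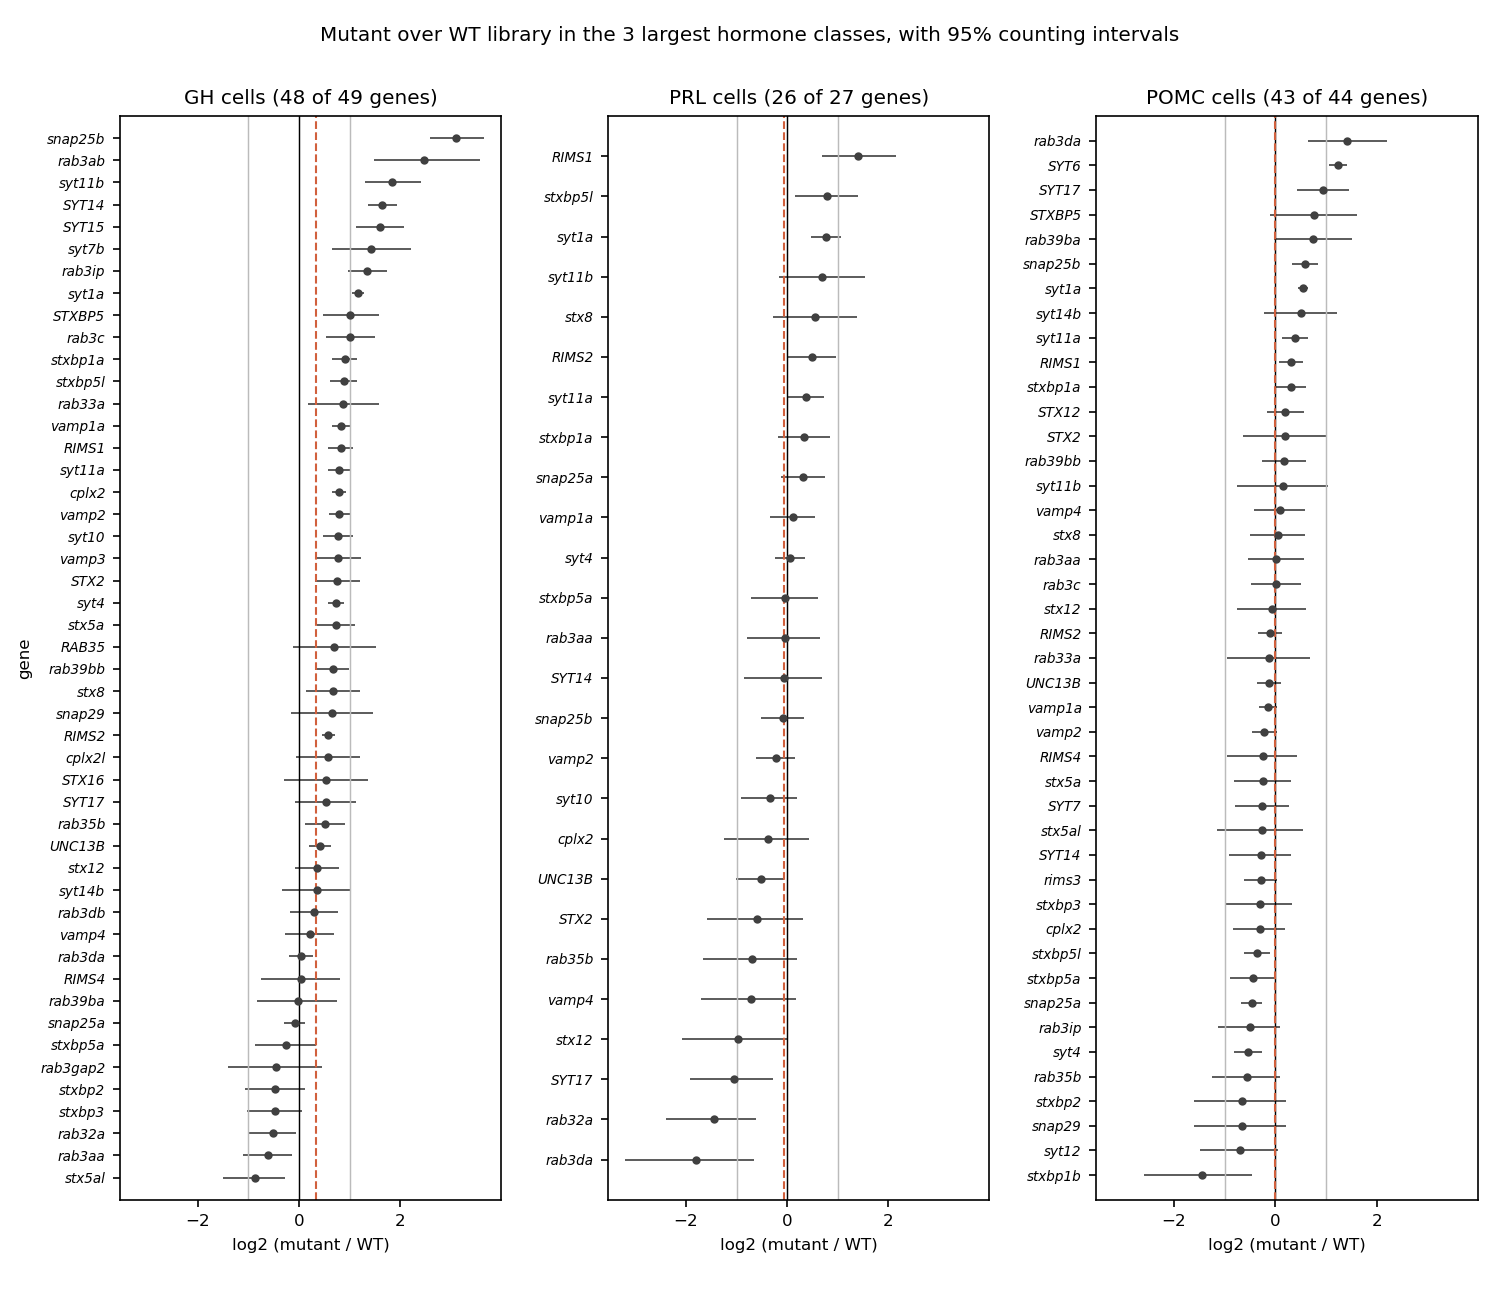
log2 ratio of mutant over WT CPM (x axis) for members tested in GH (48 of 49), PRL (26 of 27) and POMC cells (43 of 44), with 95% counting intervals as bars, grey lines at 2-fold and a dashed line at the median of all genes tested. *snap25b* is at the top of the GH panel at 3.10, and no member of that panel lies below -1.

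The largest difference in GH cells was that of *snap25b*, with 12.1 CPM (8.53 to 16.7) in WT and 104 CPM (90.3 to 119) in the mutant. These were 37 and 204 UMIs, the log2 ratio was 3.10 (2.59 to 3.65), and it stayed between 2.25 and 3.16 under every alternative run. A UMI of it was detected in 23 of 193 cells in WT (11.9%) and in 55 of 122 in the mutant (45.1%). After thinning to 2000 UMIs these shares were 2.44% and 14.4%. Red blood cell-like cells, as background and without thinning, gave 1.02% of cells in WT and 0 of 253 in the mutant, for which the exact upper limit was 1.45%. The paralogue *snap25a* had 167 and 157 CPM in GH cells (log2 ratio -0.09, -0.30 to 0.12). Among GH cells restricted by their *gh1* share, described below, its ratio was -0.64 (-0.87 to -0.40), lower in the mutant. In PRL cells *snap25b* was at 152 and 143 CPM (-0.09, 24.6% of the mutant UMIs in 1 cell), and in POMC cells at 191 and 288 CPM (0.59, 0.34 to 0.85). LH cells, too few in the mutant for a call, had 151 and 493 CPM, and 409 CPM without the mutant cell that held 23.5% of the UMIs.

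The GH cells of the libraries also differed in how much *gh1* they held, and members were therefore set against the *gh1* share. Among cells of 10 to 20% *gh1*, *snap25b* had 16.9 CPM in 55 WT cells and 117 CPM in 63 mutant cells. Among those of 20 to 30% it had 14.4 CPM in 60 and 90.02 CPM in 46 cells, and above 30% it had 9.40 CPM in 78 and 68.8 CPM in 13 cells. The intervals did not overlap in any of the 3 ranges. *syt1a* moved with the *gh1* share in WT, from 564 to 418 to 239 CPM, and stood at 807, 762 and 576 CPM in the mutant. In the cells of 10 to 30% *gh1* (115 and 109 cells), 2 of 43 members were at least 2-fold higher, *snap25b* (2.78) and *SYT15* (1.04), where 7.33% of all genes were. *rab32a* was lower (-1.32), where 5.18% of all genes were. The members' median there was 0.22 and that of all genes 0.05. These *gh1* ranges were chosen after the data were seen.

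**Figure D5:**
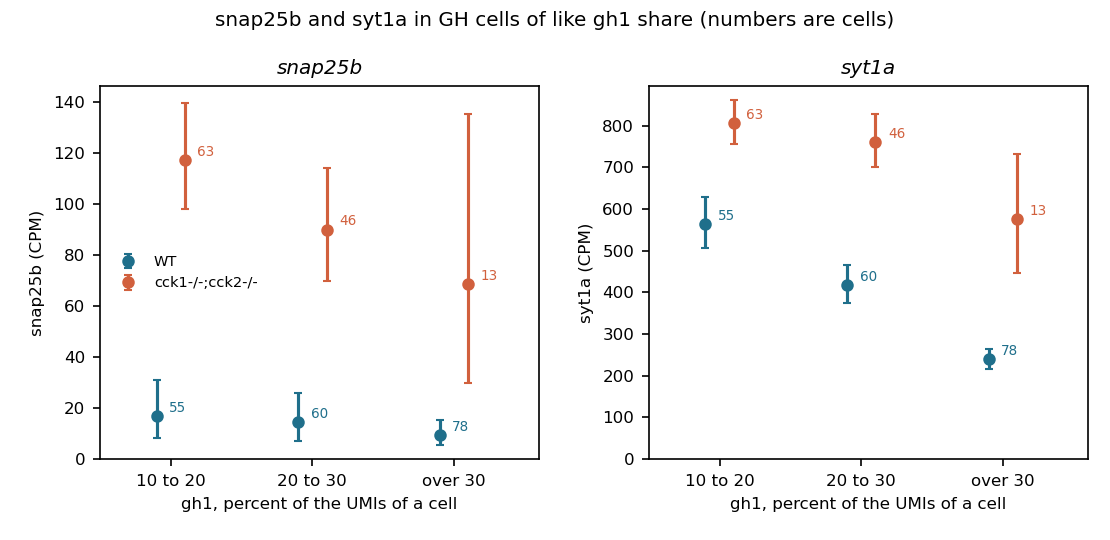
CPM of *snap25b* and *syt1a* in GH cells, summed over cells of 10 to 20%, 20 to 30% and over 30% *gh1*, for WT and mutant with exact 95% Poisson intervals. The *snap25b* points of the mutant (117, 90.02 and 68.8 CPM) lie above those of WT (16.9, 14.4 and 9.40 CPM) in each range.

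After *snap25b*, the Rab3A gene *rab3ab* had the next largest ratio in GH cells, at 3.6 CPM in WT and 19.9 in the mutant library (2.47, 1.47 to 3.58), with 28.2% of its 39 mutant UMIs in 1 cell. *syt11b* had 13.1 and 47.0 CPM (1.84, 1.29 to 2.42). *syt1a* had 347 and 776 CPM (1.16, 1.05 to 1.28), and its median over single cells was 272 and 642 CPM. Another 6 members passed 2-fold and are named after their values were seen: *SYT14* (1.65), *SYT15* (1.59), *syt7b* (1.41), *rab3ip* (1.35), *STXBP5* (1.01) and *rab3c* (1.01). At the other end stood *stx5al*, a syntaxin 5 gene of the Golgi, with 29.8 and 16.3 CPM (-0.87), *rab3aa* with 41.2 and 27.1 CPM (-0.61) and *rab32a* with 41.6 and 29.1 CPM (-0.52). *stxbp5l* had a ratio of 0.88 and *vamp5*, with 12 and 3 UMIs, was not tested.

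Markers of other cell types were counted in the same GH cells. The neuron list summed to 97.9 CPM in WT and 127 in the mutant library, with 8 of 12 genes detected in each and *slc32a1*, *slc17a6b* and *neurod2* at 0 in both. The leukocyte list summed to 97.9 CPM (20 of 31) and 35.2 CPM (13 of 31), the glial list to 33.1 CPM (8 of 16) and 35.2 CPM (10 of 16), and the red blood cell list to 7692 and 6105 CPM (11 of 11 in each). The oligodendrocyte list went from 974 CPM (6 of 10) to 2436 CPM (7 of 10), nearly all of it *plp1b* (896 and 2397 CPM), with *olig2* and *sox10* at 0 in both. The endothelial list summed to 23.6 CPM (12 of 13) and 64.3 CPM (13 of 13), the mesenchymal list to 159 CPM (18 of 20) and 286 CPM (16 of 20), and the keratinocyte or epithelial list to 40.6 CPM (5 of 10) and 81.7 CPM (7 of 10). Their part in the differences between the libraries was not tested.

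In POMC cells 2 of 44 members tested were at least 2-fold higher in the mutant, where 4.06% of all genes were, and 1 was lower, where 5.45% were, and the median was -0.11 against -0.01 for all genes. *rab3da* went from 16.9 to 44.9 CPM (1.42, 0.64 to 2.21) and *SYT6* from 316 to 742 CPM (1.23, 1.05 to 1.41). Without the 10 deepest cells of the class *SYT6* had a ratio of 0.67. *stxbp1b*, a second Munc18-1 gene, went from 35 to 12.8 CPM (-1.45, -2.59 to -0.46, 30.0% of its 10 mutant UMIs in 1 cell). Below 2-fold, *SYT17* had 44.1 and 84.8 CPM (0.94, 28.8% of the mutant UMIs in 1 cell), *syt12* had a ratio of -0.69 and *snap29* one of -0.66 (26.7% of 15 mutant UMIs in 1 cell). The neuron list in these cells summed to 1046 and 1377 CPM, of which *gad2* made 788 and 1050 CPM, and the red blood cell list to 9052 and 4135 CPM, and their part was not tested.

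In PRL cells 1 of 27 members was higher in the mutant, where 5.07% of all genes were, and 3 were lower, where 7.98% were. The median was -0.05, against -0.06 for all genes. *RIMS1* went from 30.5 to 80.9 CPM (1.41, 0.68 to 2.14, 28.2% of the mutant UMIs in 1 cell). *rab3da* went from 50.8 to 14.5 CPM (-1.81, -3.19 to -0.66), on 50 and 7 UMIs, *rab32a* from 79.3 to 29.0 CPM (-1.45, 28.6% in 1 mutant cell) and *SYT17* from 73.2 to 35.3 CPM (-1.05, 29.4% in 1 mutant cell). *stxbp5l* (0.78, 30.2% in 1 mutant cell) and *syt1a* (0.76) came after *RIMS1*. Of the *syt1a* UMIs of mutant PRL cells 47.7% were in 1 cell, and without the 10 deepest cells its ratio was -0.60. The glial list in PRL cells went from 489 CPM (12 of 16 genes) to 56.0 CPM (8 of 16), with *sox2* and *sox3* at 0 in both, and the red blood cell list from 8017 CPM (9 of 11) to 21533 CPM (11 of 11). The neuron list went from 182 CPM (8 of 12) to 398 CPM (5 of 12). Their part was not tested.

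Outside hormone cells the members gave fewer UMIs, and 1 cell often decided a value. In leukocyte-like cells 5 of 24 members differed at least 2-fold in either direction, where 18.8% of all genes did. They were *syt11a* (8.02 and 33.7 CPM, 2.07, 38.5% of 13 WT UMIs in 1 cell), *RAB35* (1.03), *stx17*, the autophagosome syntaxin (1.01, 67.4% of the mutant UMIs in 1 cell and -0.34 without the top cells), *STX16* of the Golgi (-1.40) and *vamp5* (-1.51). *stx11a* there had 273 and 195 CPM and *stxbp2*, the Munc18 partner of syntaxin 11 in human lymphocytes, 102 and 89 CPM (-0.21), and *stx12* had a ratio of -0.97. In glial or pituicyte-like cells 1 of 11 differed, where 15.7% of all genes did: *snap23.2* went from 7.75 to 84.3 CPM (3.44), on 6 and 56 UMIs with 26.8% of the mutant UMIs in 1 cell. In mesenchymal-like cells 1 of 5 differed, where 19.1% did: *stx17* (-2.10), with 79.7% and 79.2% of its UMIs in 1 cell of each library. *syt11a*, the 1 member tested in oligodendrocyte-like cells, had a ratio of 0.66 (29.6% and 51.2% in 1 cell) where 11.4% of all genes differed at least 2-fold, and no member reached the minimum in keratinocyte or epithelial-like cells, where 17% of all genes differed.

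Red blood cell-like cells, the background class, differed as well. There 4 of 14 members differed at least 2-fold, where 13.5% of all genes did: *cplx2* (12.8 and 28.4 CPM, 1.15, 20.3% of the mutant UMIs in 1 cell), *stxbp2* (-1.12), *syt11a* (-1.35, 37.7% of the WT UMIs in 1 cell) and *STX1A* (-1.85, on 47 and 5 UMIs). Of *snap25b* this class held 9 UMIs in the WT library and 0 in the other. Among unassigned cells 10 of 54 members were higher in the mutant, where 7.43% of all genes were, and 4 were lower, where 6.17% were. The highest were *cplx2l* (3.75, 81.1% of the mutant UMIs in 1 cell), *snap25b* (3.56, 69.9% in 1 cell) and *cplx2* (2.01), and the lowest *stxbp5l* (-1.62), *stxbp5a* (-1.32) and *STX2* (-1.02). In that class *stxbp5l* had 29.5% and 26.5% of its UMIs in 1 cell, and *stxbp5a* 29.2% and 27.2%.

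Other genes of the secretory pathway, listed by function rather than by how they moved, gave a wider view. Of 80 symbols, 62 were found among the listings. In WT 30 of 50 tested were at least 2-fold higher in hormone than in non-endocrine cells and 0 were lower, where 31.7% and 19.7% of all genes were, and in the mutant 22 of 49 were higher and 1 was lower, where 23.8% and 23.4% were. *DOC2B*, a calcium-binding priming factor, had 368 CPM in hormone and 34.4 CPM in non-endocrine cells of WT (3.42), and *SV2A*, a vesicle membrane protein, 121 and 9.41 CPM (3.68). The lower gene was *SYTL3* in the mutant (1.31 and 16.4 CPM, -3.65). Between the libraries, 4 of 35 were higher and 0 lower in GH cells, where 16.3% and 4.09% of all genes were, with *ERC2*, an active-zone scaffold that binds RIM, at 25.2 and 76.6 CPM (1.60). In POMC cells 3 of 34 were higher and 0 lower, where 4.06% and 5.45% of all genes were, and the highest was *sv2ca* (60.9 and 196 CPM, 1.69). In PRL cells 0 of 15 were higher and 1 lower, *exoc6b* (-1.23), where 5.07% and 7.98% of all genes were. These genes are named after their values were seen.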

How the data were processed

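Dissociated pituitary cells of 2 groups of male zebrafish were captured with the 10X Genomics droplet system, 1 library per genotype. The authors deposited UMI counts per gene and barcode, 1 matrix per library and not normalized. The submitters' processing notes name Cell Ranger, Seurat and GRCz11, and cell labels were not used here. 0 columns of per-sample values were left aside.

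Barcodes with at least 200 genes and at most 20% mitochondrial UMIs were kept. The automatic Scrublet threshold marked 0 doublets, so the barcodes with the highest scores were taken out, at a rate of 0.8% for each 1000 barcodes (206 and 101), which left 4864 WT cells (median 882 UMIs) and 3458 mutant cells (median 982.5 UMIs). Cells of at least 2000 UMIs with at least 5 UMIs of a hormone were classed by its share of UMIs: GH 10%, PRL 2%, POMC 2%, LH 1%, FSH 0.5%, TSH 0.5% and SL 0.2%. Cells past several thresholds, 9 and 3 in number, went to the highest multiple, and 68 and 44 cells between the classes were left out. Non-endocrine names needed at least 3 marker genes and 10 UMIs of 1 of 8 lists.

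UMIs were summed per class and given as CPM with exact Poisson intervals, ratios with exact conditional intervals, and shares with Clopper-Pearson intervals, all at 95%. UMIs are molecules, and the intervals and the bound for a count of 0 (3 counts) cover counting error only. A comparison needed 50 UMIs over both groups, and "called" meant 2-fold. The ratio and its interval were tested on simulated data. Genes named were *snap25b*, *stxbp5l* and *vamp5*, the 10 members with the most UMIs in hormone cells, the 8 highest and 8 lowest in hormone over non-endocrine cells of WT, the 3 highest and 3 lowest in each comparison of the libraries, and those 4-fold above the next class, of which 1 is not reported here. A gene with over 20% of a group's UMIs in 1 cell, where the group held at least 10, is given with that share. The members and lists were chosen with earlier results of these data known. Alternatives changed the filters, thresholds, scaling, depth and cells included. Scores came from scanpy 1.11.5 with anndata 0.12.19, and all else from scipy 1.17.1, numpy 2.4.6 and pandas 2.3.3 under Python 3.11.15.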

Additional observations from a re-analysis of the deposited data

Results flagged for a closer look

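The ratio of mutant over WT went in opposite directions in different classes for 3 members, and the difference between the classes was not tested. *rab3da* was higher in mutant POMC cells (log2 ratio 1.42) and lower in mutant PRL cells (-1.81). *syt11a* was higher in mutant leukocyte-like cells (2.07) and lower in mutant red blood cell-like cells (-1.35). *stx17* was higher in mutant leukocyte-like cells (1.01) and lower in mutant mesenchymal-like cells (-2.10), and in each of these classes 1 cell held most of the UMIs of the library with the higher level.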

How the results depend on the processing

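No paired analysis was possible because each genotype has 1 library, and for the same reason no library could be left out. Of the values that count or sum members, 238 alternatives stayed within 1.5 times or within the spread and 65 moved. Counts and sums cannot be negative, so no change of direction was possible for them. Of the values of single genes, 79 were at least 2-fold, and 5 of their 1291 alternatives had the other sign. The 5 were *stx17* in leukocyte-like cells (-0.17 as a mean over cells, -0.29 thinned, -0.34 without the top cell), *SYT3* in hormone over non-endocrine cells of WT (0.13 thinned) and *STX1A* in red blood cell-like cells (0.0016 thinned). Another 59 values were under 2-fold, and 24 of them had the other sign in 1 or more alternatives (55 of 908). Among these were, in PRL cells, *stxbp5l* (0.78, and -1.04 thinned), *syt1a* (0.76, and -0.60 without the 10 deepest cells) and *RIMS2* (0.48, and -0.66 without them). The direction of a value under 2-fold, where one is given above, is therefore not taken as settled. Thinning leaves fewer members above the minimum of 50 UMIs, so its counts are over fewer members.

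With cells thinned to 2000 UMIs, the members at least 2-fold higher in hormone cells numbered 26 in WT and 21 in the mutant, those lower 4 and 4, and those with the same highest class 13. Thinned counts of mutant over WT were 3 higher in GH cells, 0 higher and 0 lower in POMC cells and in PRL cells, and, in either direction, 4 in unassigned, 1 in leukocyte-like, and 0 in mesenchymal-like, glial or pituicyte-like and red blood cell-like cells. With a minimum of 20 UMIs the counts were 2 lower in GH cells, 5 higher and 5 lower in POMC cells, 5 higher and 7 lower in PRL cells, and, in either direction, 9 in leukocyte-like, 7 in red blood cell-like, 7 in glial or pituicyte-like, 6 in mesenchymal-like, 4 in oligodendrocyte-like and 2 in keratinocyte or epithelial-like cells. With a minimum of 100 UMIs they were 1 higher and 0 lower in POMC cells, 0 and 0 in PRL cells, 1 in red blood cell-like and 0 in leukocyte-like, glial and mesenchymal-like cells. The number of members tested changed with the setting. In leukocyte-like cells it was 24 in the main run, 30 at 20 UMIs, 13 at 100 UMIs and 7 thinned. In glial or pituicyte-like cells it was 11, 31, 4 and 1. No share of all genes is given for these settings, so their counts are not read as results about the members.

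In GH cells of 10 to 30% *gh1*, 2 members were higher and 1 lower. In all GH cells 1 was lower with CPM taken without hormone and mitochondrial genes, with median scaling or with doubled hormone thresholds, and 2 with halved thresholds, which gave 4 higher in POMC cells. Without the 10 deepest cells of each class, POMC cells had 1 higher and 0 lower, PRL cells 0 higher, and unassigned cells 8 in either direction. As means over cells, PRL cells had 2 higher and 6 lower and glial or pituicyte-like cells 3 in either direction. Without the top cell of each gene, red blood cell-like cells had 1, and glial and mesenchymal-like cells 0. A minimum of 500 genes gave 2 in red blood cell-like cells and one of 1000 UMIs 5 lower in PRL cells. The cause of these changes was not tested.

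The summed level of members in hormone cells was, in WT and mutant, 5798 and 6870 CPM without hormone and mitochondrial genes, 4631 and 5496 CPM thinned, 4601 and 5429 CPM as a mean over cells, 4645 and 5790 CPM without the 10 deepest cells and 4305 and 5416 CPM without the top cells. It was 4318 CPM in WT with doubled and 5804 CPM in the mutant with halved thresholds. Classes of 22 cells or fewer (FSH, TSH and SL, and mutant LH) rest on few UMIs per gene, and their levels are the least certain here.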
